A study of Mus musculus with 10 samples.

Results

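The 41 genes described here encode enzymes of glycolysis, enzymes that build and break down glycogen, and kinases that switch off pyruvate dehydrogenase. They also encode transporters that move glucose and lactate across the plasma membrane. They were chosen by gene symbol, with earlier results of these data known. All 41 were found among the 51789 genes of the count table. All 41 also passed the filter on low counts, which left 15232 genes for testing. RNA came from isolated cardiomyocytes taken 4 days after surgical myocardial infarction (MI). The NLC-MI group held 5 non-transgenic littermate controls and the TgGRK5-MI group held 5 transgenic mice that overexpress GRK5 (G protein-coupled receptor kinase 5) in cardiomyocytes, with 1 library per mouse. All 10 mice had an infarct, so the comparison is of the transgene after MI, and uninjured hearts were not analysed here. Mice entered surgery at 8 to 12 weeks of age and were of both sexes, but the age and sex of the 10 sequenced mice and the promoter that drives the transgene are not given in the sources used here.

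Glycolysis splits glucose into pyruvate, which is either reduced to lactate or passed into the mitochondrion through pyruvate dehydrogenase. Glycogen is the stored form of glucose, built by glycogen synthase and branching enzyme and released by glycogen phosphorylase, which phosphorylase kinase switches on. The adult heart draws mostly on fatty acids and on lactate taken up from blood, and glycolysis gains weight when oxygen is short, as in infarcted muscle. Many of these steps have muscle and non-muscle isozymes, which are products of different genes for the same reaction.

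Library totals ran from 7968779 to 23381527 counts, and 3 libraries (NLC-MI replicate 3 and TgGRK5-MI replicates 3 and 4) held no more than 12833652 counts each, against at least 17539882 in the other 7. These 3 libraries stood apart from the rest on the first principal component of all genes (43.9% of the variance), and NLC-MI replicate 5 stood apart on the second (23.2%). Grk5 was at 46.5 to 73.1 CPM (counts per 1000000 with TMM scaling) in NLC-MI and at 552 to 1700.4 CPM in TgGRK5-MI, and the groups did not overlap. All 10 listed cardiomyocyte markers were measured, with a summed level of 56504 to 146947 CPM in NLC-MI and 60991 to 121602 CPM in TgGRK5-MI. Other cells were also represented. The 12 macrophage and monocyte markers summed to 835 to 2451 CPM in NLC-MI and 1339 to 2751 CPM in TgGRK5-MI, and the 9 fibroblast markers to 4035 to 24109 CPM and 4201 to 24781 CPM. In whole-population RNA of this kind, a change in the number of cells of a type and a change in RNA per cell cannot be told apart.

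Between the groups, most members gave differences near 0, and the few that stood out belonged to lactate transport, glycogen handling and the entry step of glycolysis. A lactate and pyruvate transporter (Slc16a7) and an enzyme of glycogen synthesis (Ugp2) were higher in TgGRK5-MI, and a catalytic subunit of phosphorylase kinase (Phkg1) and a hexokinase (Hk2) were lower, each at an unadjusted p under 0.05. In edgeR's quasi-likelihood test, 0 of the 41 members were called at an adjusted p under 0.10, where 12 of 15232 genes (0.0788%) were called, 0.0525% higher and 0.0263% lower. At an unadjusted p under 0.05 in the same fit, 4 of 41 members passed, 2 higher and 2 lower, where 586 of all genes tested did (3.85%), 1.77% higher and 2.08% lower. DESeq2 called 2 of the members at an adjusted p under 0.10, Slc16a7 and Phkg1, where it called 0.397% of 17398 genes. Limma-voom called Slc16a7 and Ugp2, where it called 0.328% of the 15232 genes. The groups did not overlap for 2 of the 41 members (Slc16a7 and Phkg2, both higher in TgGRK5-MI), where 1.0% of all genes tested showed this, 0.584% higher and 0.42% lower.

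The members' median log2 fold change (TgGRK5-MI against NLC-MI) was -0.03, beside 0.00 over all genes tested, and 19 members had a higher and 22 a lower fitted level in TgGRK5-MI. For 35 of 41 the fitted difference was under 0.5 on the log2 scale in either direction. The precision sets how this can be read. The 95% interval lay within -1 to 1 on the log2 scale for 27 members and reached or passed these bounds for 14. It lay within -0.5 to 0.5 for 4 (Gpi1, Pgk1, Pkm and Gbe1). For every other member the interval held differences of 0.5 or more in at least 1 direction, so these were not excluded with 5 libraries per group.

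**Figure D1:**
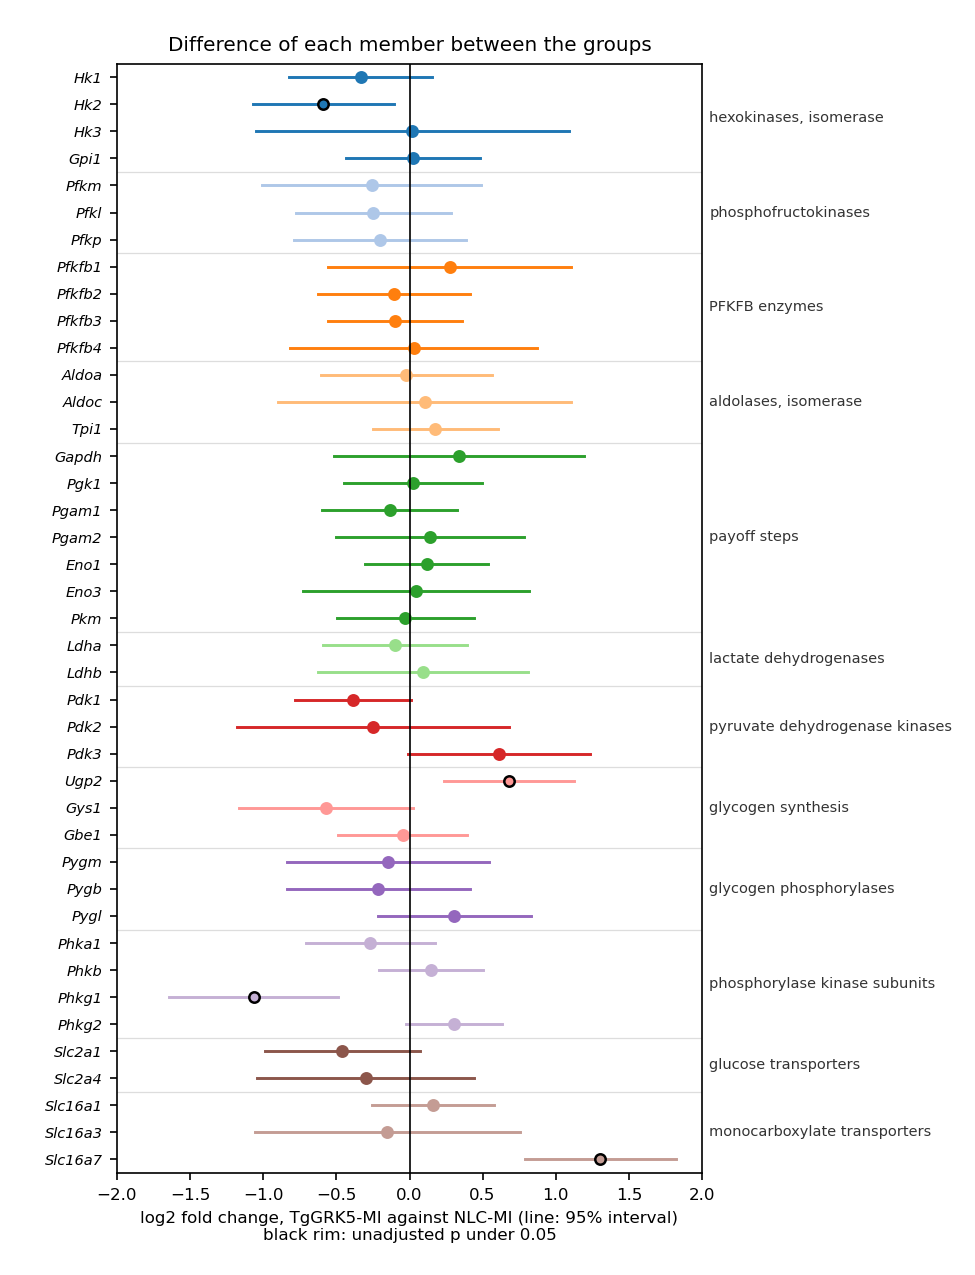
Log2 fold change (TgGRK5-MI against NLC-MI) of each of the 41 members, grouped by role, with its 95% interval from the edgeR fit over 10 libraries. Black rims mark the 4 members with an unadjusted p under 0.05: Slc16a7 at 1.30, Ugp2 at 0.68, Hk2 at -0.59 and Phkg1 at -1.07. The intervals of the other 37 members cover 0.

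The monocarboxylate transporters carry lactate, pyruvate and ketone bodies together with a proton. Slc16a7 (ENSMUSG00000020102, chromosome 10 from 125219270 to 125389465, minus strand, GRCm38) encodes MCT2, which has a high affinity for its substrates and is known for lactate and pyruvate uptake. In NLC-MI replicates 1 to 5 it was at 5.33, 4.57, 8.37, 5.16 and 7.59 CPM, and in TgGRK5-MI at 17.1, 10.1, 20.2, 15.7 and 13.0 CPM. The lowest TgGRK5-MI library lay above the highest NLC-MI library. The means of NLC-MI and TgGRK5-MI were 6.21 ± 1.67 and 15.2 ± 3.86 CPM (SD, 5 mice per group), a fitted fold of 2.47 and a log2 fold change of 1.30 with a standard error of 0.24. The unadjusted p was 0.000146, which placed Slc16a7 15th of the 15232 genes by p, and the edgeR adjusted p was 0.149. The exact two-sided permutation test gave p = 0.00794, the smallest that 5 against 5 libraries allow, which groups without overlap always give. The adjusted p of Slc16a7 depended on the setting, from 0.000322 with DESeq2 to 0.756 when the 7 libraries with the most counts were fitted alone, while its log2 fold change stayed between 1.17 and 1.43 with any 1 library left out.

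The other monocarboxylate transporters gave smaller differences. Slc16a1 encodes MCT1, the main lactate transporter of the heart, and had the highest level per kb of the 3. It was at 165, 185, 200.1, 260.2 and 309 CPM in NLC-MI and at 243, 234, 309, 210.1 and 254 CPM in TgGRK5-MI. These ranges overlapped, with a log2 fold change of 0.16 (95% interval -0.26 to 0.58). Slc16a3 encodes MCT4, which is known for lactate export from glycolytic cells, and ran from 7.53 to 43.4 CPM in NLC-MI and from 11.4 to 36.0 CPM in TgGRK5-MI. Per kb of exon model, Slc16a7 made up 0.961% ± 0.299 of the RNA of the 3 transporters in NLC-MI and 2.07% ± 0.485 in TgGRK5-MI (SD, 5 mice per group). Unlike the CPM values, these shares overlapped, with NLC-MI replicate 3 at 1.44% and TgGRK5-MI replicate 2 at 1.41%. Slc16a7 was the least abundant of the 3 in every library, with a mean level of 2.57 TPM (transcripts per 1000000, from exon model lengths).

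**Figure D2:**
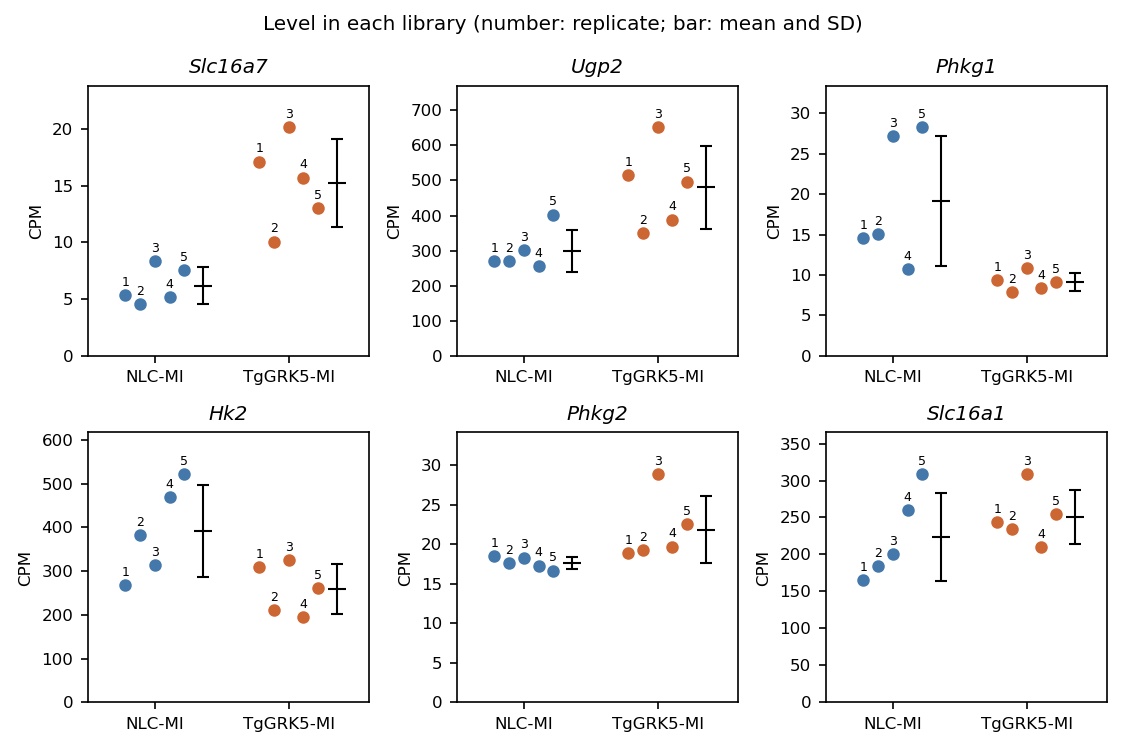
Levels in CPM of Slc16a7, Ugp2, Phkg1, Hk2, Phkg2 and Slc16a1 in each library, with numbers for replicates and bars for the group mean and SD. The groups do not overlap for Slc16a7 and Phkg2, whereas for Ugp2 NLC-MI replicate 5 (403 CPM) lies above TgGRK5-MI replicates 2 and 4, and for Phkg1 NLC-MI replicate 4 (10.7 CPM) lies just below TgGRK5-MI replicate 3.

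In glycogen synthesis, Ugp2 (ENSMUSG00000001891, chromosome 11 from 21321138 to 21371201, minus strand) encodes UDP-glucose pyrophosphorylase, which makes the activated glucose that glycogen synthase adds to the chain. It was at 270.0, 269.5, 300.4, 256 and 403 CPM in NLC-MI and at 515, 351, 652, 388 and 497 CPM in TgGRK5-MI. All 5 TgGRK5-MI libraries lay above the NLC-MI mean, but NLC-MI replicate 5 lay above TgGRK5-MI replicates 2 and 4. The means were 299.7 ± 59.8 and 481 ± 118 CPM (SD, 5 mice per group), a log2 fold change of 0.68 with a standard error of 0.20 (unadjusted p = 0.00600, edgeR adjusted p = 0.859). The exact two-sided permutation test gave p = 0.0238. Over the alternatives its adjusted p ran from 0.0985 with limma-voom to 1.00. The other members of the group did not pass an unadjusted p of 0.05. Gys1, the muscle form of glycogen synthase, ran from 77.4 to 219 CPM in NLC-MI and from 74.6 to 136 CPM in TgGRK5-MI, a log2 fold change of -0.57 that missed the threshold (unadjusted p = 0.0596, edgeR adjusted p = 1.00). Gbe1, the branching enzyme, had a log2 fold change of -0.05 (95% interval -0.49 to 0.40).

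Phosphorylase kinase is built of regulatory alpha and beta subunits, a catalytic gamma subunit and calmodulin. Phkg1 (ENSMUSG00000025537, chromosome 5 from 129863421 to 129898549, minus strand) encodes the muscle form of the catalytic subunit. It was at 14.6, 15.1, 27.2, 10.7 and 28.3 CPM in NLC-MI and at 9.39, 7.85, 10.9, 8.40 and 9.13 CPM in TgGRK5-MI. The TgGRK5-MI libraries were tightly grouped at the low end, and the ranges overlapped only because TgGRK5-MI replicate 3 lay just above NLC-MI replicate 4. The means were 19.2 ± 8.02 and 9.13 ± 1.14 CPM (SD, 5 mice per group), a log2 fold change of -1.07 with a standard error of 0.27 (unadjusted p = 0.00178, edgeR adjusted p = 0.501). The exact two-sided permutation test gave p = 0.0159. Over the alternatives the adjusted p of Phkg1 ran from 0.0528 with DESeq2 to 0.999 in edgeR without TgGRK5-MI replicate 5. With limma-voom it was 0.219, at a log2 fold change of -0.72. NLC-MI replicates 3 and 5 were the high ones. The log2 fold change was -0.91 without replicate 3 and -0.88 without replicate 5. Of the exon bases of Phkg1, 630 are shared with Sumf2 on the opposite strand. Sumf2 itself was at 10.6 ± 2.53 CPM in the NLC-MI group and 10.1 ± 1.94 CPM in the TgGRK5-MI group (SD, 5 mice per group), and the strand setting of the counting is not given in the sources used here, so reads of the shared bases cannot be told apart.

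Phkg2 encodes the catalytic subunit known from liver and testis, and it was the second member without overlap between the groups. It was at 18.5, 17.6, 18.3, 17.3 and 16.7 CPM in NLC-MI and at 18.9, 19.3, 28.9, 19.7 and 22.6 CPM in TgGRK5-MI. The gap between the groups was narrow, from 18.5 to 18.9 CPM. The log2 fold change was 0.31 (unadjusted p = 0.0644, edgeR adjusted p = 1.00), and it was 0.18 without TgGRK5-MI replicate 3. The exact two-sided permutation test gave the smallest possible p of 0.00794, which groups without overlap always give, so it adds nothing to the lack of overlap. Phkg2 shares 876 exon bases with Ccdc189 on the opposite strand, which was at 5.93 ± 2.06 CPM in the NLC-MI group and 7.72 ± 2.99 CPM in the TgGRK5-MI group (SD, 5 mice per group). The regulatory subunits showed smaller differences. Phkb, the beta subunit, had the highest level per kb of the 4 and was at 49.2, 51.7, 62.7, 47.7 and 78.7 CPM in NLC-MI and at 76.1, 56.1, 67.0, 59.0 and 63.1 CPM in TgGRK5-MI, with a log2 fold change of 0.15 (95% interval -0.21 to 0.51). For Phka1, the muscle alpha subunit, the log2 fold change was -0.27 (95% interval -0.71 to 0.17).

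Glycogen phosphorylase releases glucose phosphate from glycogen. Pygm, the muscle form, was at 544, 728, 830.3, 819 and 1504 CPM in NLC-MI and at 899.9, 518, 1293, 609.8 and 669.7 CPM in TgGRK5-MI. The ranges overlapped widely, with the highest value in NLC-MI replicate 5. Its log2 fold change was -0.15, that of Pygb (the brain form) was -0.21 and that of Pygl (the liver form) was 0.30, with unadjusted p-values of 0.646, 0.473 and 0.228 in the edgeR fit. Pygl was the least abundant of the 3 and ran from 8.44 to 21.3 CPM over the 10 libraries.

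At the entry to glycolysis, hexokinase phosphorylates glucose and so holds it in the cell. Hk2 (ENSMUSG00000000628, chromosome 6 from 82725025 to 82774454, minus strand) encodes the insulin-responsive form of muscle. It was at 269, 382, 314, 469 and 523 CPM in NLC-MI and at 309, 212, 325, 195 and 260.3 CPM in TgGRK5-MI. All 5 TgGRK5-MI libraries lay below the NLC-MI mean, and the ranges overlapped between 269 and 325 CPM. The means were 391 ± 105 and 260.1 ± 57.2 CPM (SD, 5 mice per group), a log2 fold change of -0.59 with a standard error of 0.22 (unadjusted p = 0.0204, edgeR adjusted p = 1.00). The exact two-sided permutation test gave p = 0.0397. The unadjusted p of Hk2 was 0.0513 without NLC-MI replicate 4, 0.0510 without NLC-MI replicate 5 and 0.0515 without TgGRK5-MI replicate 4. NLC-MI replicate 5, the library with the highest Hk2, also had the highest summed cardiomyocyte markers (146947 CPM), and the part of this in the difference was not tested.

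Hk1, the broadly expressed form, had a log2 fold change of -0.33 (95% interval -0.82 to 0.15) and lay below the NLC-MI mean in all 5 TgGRK5-MI libraries. Hk3, a form known from white blood cells, ran from 3.80 to 19.7 CPM with a log2 fold change of 0.02. Its 3 lowest values, 3.80, 3.91 and 3.93 CPM, were in NLC-MI replicate 5, TgGRK5-MI replicate 3 and NLC-MI replicate 3. In these libraries the macrophage and monocyte markers summed to 835, 1339 and 842 CPM, against 1108 to 2751 CPM in the other 7. The neutrophil markers summed to 12.3, 22.6 and 28.4 CPM in the same libraries, within or near the 16.5 to 39.1 CPM of the other 7. The part of either kind of cell in the Hk3 level was not tested. Gpi1, glucose phosphate isomerase, had the highest level per kb of this group. It was at 628, 794, 946, 1011 and 918 CPM in NLC-MI and at 878, 665, 1187, 881 and 765 CPM in TgGRK5-MI, with a log2 fold change of 0.03 (95% interval -0.43 to 0.48).

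Phosphofructokinase is the main control point of glycolysis. Pfkm, the muscle form, was at 556, 794, 490.0, 738 and 1581 CPM in NLC-MI and at 941, 669, 829, 360.3 and 677 CPM in TgGRK5-MI. NLC-MI replicate 5 was far above all other libraries, and the remaining values of both groups were interleaved. The log2 fold changes were -0.26 for Pfkm, -0.25 for Pfkl (liver form) and -0.20 for Pfkp (platelet form), with edgeR unadjusted p-values of 0.466, 0.331 and 0.472. With 1 library left out they ran from -0.40 to 0.10 for Pfkm, positive without NLC-MI replicate 5, from -0.39 to -0.11 for Pfkl and from -0.39 to -0.00618 for Pfkp. The Pfkfb genes encode enzymes that make and remove fructose 2,6-bisphosphate, the strongest activator of phosphofructokinase. Pfkfb2, the heart form, had the highest level per kb and was at 32.2, 54.4, 49.6, 52.8 and 84.0 CPM in NLC-MI and at 60.1, 40.4, 52.5, 37.5 and 62.9 CPM in TgGRK5-MI. None of the 4 Pfkfb genes passed an unadjusted p of 0.05 in the edgeR fit, and their log2 fold changes ran from -0.11 for Pfkfb2 to 0.27 for Pfkfb1, with Pfkfb3 and Pfkfb4 between them. For Pfkfb1 the value ran from 0.06 to 0.81 with 1 library left out, the highest without NLC-MI replicate 5.

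Of the aldolases, nearly all RNA was that of Aldoa, the muscle form. It was at 2344, 2596, 3305, 3446 and 3886 CPM in NLC-MI and at 3181, 2552, 4127, 2573 and 2899.7 CPM in TgGRK5-MI, with a log2 fold change of -0.02 (95% interval -0.61 to 0.56). Aldoc, the brain form, was the only member under 1 CPM in both groups. It had 21, 13, 2, 13 and 3 counts in NLC-MI and 16, 20, 2, 4 and 10 counts in TgGRK5-MI, so in 3 libraries it lay at or below the 3 counts taken as the floor of the depth. Triose phosphate isomerase (Tpi1) ran from 682 to 1056 CPM with a log2 fold change of 0.18 (95% interval -0.25 to 0.60).

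The 7 genes of the later steps, which recover ATP, showed log2 fold changes from -0.14 for Pgam1 to 0.34 for Gapdh, and 0 of 7 passed an unadjusted p of 0.05 in the edgeR fit. Gapdh, the glyceraldehyde phosphate dehydrogenase gene often used as a reference, was at 4093, 3752, 8659.7, 4109.6 and 4685 CPM in NLC-MI and at 5155, 3842, 9309.8, 8561 and 5092 CPM in TgGRK5-MI. The 3 libraries with the fewest counts held 8561 to 9309.8 CPM and the other 7 held 3752 to 5155 CPM, and these sets did not overlap. Among the 41 members only Gapdh was above all 7 deeper libraries in all 3 shallow ones, and Ldha and Pfkfb4 were below them, where 9.45% and 7.93% of all genes tested showed this. The groups overlapped, and the exact two-sided permutation test of Gapdh between them gave p = 0.238.

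Gapdh has many processed pseudogenes, and how the counting shared reads among them bears on its level. In GENCODE M21, 86 other genes, 84 of them pseudogenes, matched its longest transcript at 95% identity or more over at least 200 bases. These copies took 13.4% to 32.0% of the counts of Gapdh and copies together in the 7 deeper libraries, but 1.14% in NLC-MI replicate 3, 0.312% in TgGRK5-MI replicate 3 and 0.675% in TgGRK5-MI replicate 4. Summed over gene and copies, the level was 4726 to 6608 CPM in the deeper libraries and 8619 to 9339 CPM in the 3 shallow ones, so the sets stayed apart. With copies added, the exact two-sided permutation test between the groups gave p = 0.214. Pgk1, phosphoglycerate kinase, has a copy (Gm5537) identical over 1252 bases, and its copies took 0% to 30.8% of the counts by library. The share was 0% in NLC-MI replicate 3 and TgGRK5-MI replicate 4, but 16.1% in TgGRK5-MI replicate 3, the remaining shallow library. The levels of Gapdh and Pgk1 are therefore uncertain to that extent, and the part of the depth in these shares was not tested. For Pgam1 the share on its copy reached 9.01%, and for the other members with copies, among them Eno1, Pkm, Ldha and Ldhb, the counts on copies were under 1% of those on the gene.

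**Figure D3:**
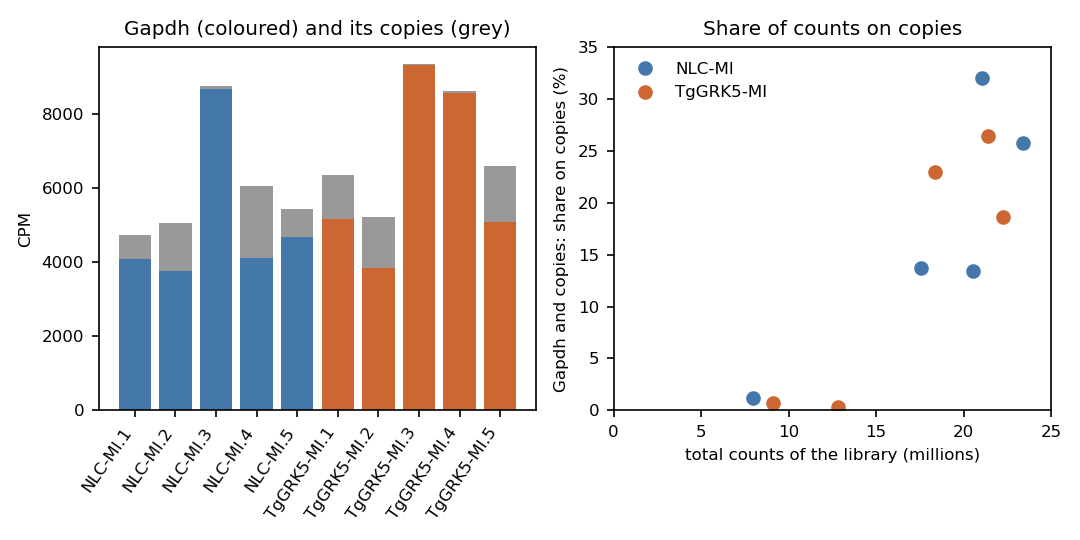
Left, CPM of Gapdh (coloured by group) with its 86 near-identical copies stacked in grey, by library. Right, share of the counts of Gapdh and copies that lay on copies (%) against the total counts of the library. The 3 libraries with the fewest counts lie at or under 1.14% and the other 7 between 13.4% and 32.0%, with libraries of both groups in each set.

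No difference was detectable for the remaining genes of these steps. Eno3, the muscle enolase, ran from 547 to 2039 CPM in NLC-MI and from 537 to 1380.0 CPM in TgGRK5-MI, and Eno1, the broadly expressed form, from 345 to 704 CPM and from 471 to 593 CPM. Pgam2, the muscle phosphoglycerate mutase, had a log2 fold change of 0.14 and Pgam1, the broad form, of -0.14. Pkm, which encodes the pyruvate kinase of muscle and most other tissues, ran from 1435 to 2320.3 CPM over all libraries with a log2 fold change of -0.03 (95% interval -0.50 to 0.44).

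At the fate of pyruvate, lactate dehydrogenase interconverts pyruvate and lactate. Ldhb, the heart form, was at 836, 895, 1075, 1009 and 2311 CPM in NLC-MI and at 1286, 1043, 2051, 946 and 1204 CPM in TgGRK5-MI. Ldha, the muscle form, was at 931, 929, 739, 1304 and 1050.4 CPM in NLC-MI and at 892, 1019, 840.0, 636 and 1232 CPM in TgGRK5-MI. The ranges of both genes overlapped, with log2 fold changes of 0.09 (95% interval -0.62 to 0.81) and -0.10 (95% interval -0.59 to 0.39). Pyruvate dehydrogenase kinases switch off pyruvate dehydrogenase and so hold pyruvate out of the mitochondrion. Of the 3 members of this family, Pdk2 had the highest level per kb. It was at 152, 204, 569, 274 and 516 CPM in NLC-MI and at 264, 135, 502, 369 and 172 CPM in TgGRK5-MI, a spread of 4.21 times from the lowest to the highest library. Pdk4, a further kinase of this family, is not a member and is counted below among the genes for pyruvate entry into mitochondria. Over the 10 libraries it had 57074 counts on 3511 exon bases, where Pdk2 had 47959 counts on 3163. Pdk1 and Pdk3 gave values in opposite directions, and both just missed the unadjusted threshold. Pdk1 was at 161 ± 44.2 CPM in the NLC-MI group and 123 ± 13.2 CPM in the TgGRK5-MI group (SD, 5 mice per group), with an edgeR unadjusted p of 0.0566. Pdk3 was at 7.70 ± 2.81 and 11.8 ± 2.62 CPM (SD, 5 mice per group), with an edgeR unadjusted p of 0.0534.

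Glucose enters the cardiomyocyte through GLUT4 (Slc2a4), which insulin and contraction bring to the membrane, and through GLUT1 (Slc2a1), which is active without insulin. Slc2a4 was at 176, 228, 201, 304 and 558 CPM in NLC-MI and at 284, 187, 364, 138 and 219 CPM in TgGRK5-MI. Slc2a1 was at 41.6, 43.4, 46.6, 73.4 and 23.9 CPM in NLC-MI and at 29.2, 35.6, 29.5, 32.9 and 39.5 CPM in TgGRK5-MI. In NLC-MI replicate 5 the 2 transporters stood at opposite ends, with the highest Slc2a4 and the lowest Slc2a1 of all 10 libraries. The log2 fold changes were -0.30 for Slc2a4 (unadjusted p = 0.396) and -0.46 for Slc2a1 (unadjusted p = 0.0826), and the edgeR adjusted p was 1.00 for both. Without NLC-MI replicate 5 the log2 fold change of Slc2a4 turned to 0.06.

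Compared per kb of exon model, muscle or heart isozymes made up most of the RNA at most steps. Over the 10 libraries, Pfkm took 83.5% ± 4.54 of the phosphofructokinase RNA (mean and SD), Pgam2 took 85.6% ± 5.24 of phosphoglycerate mutase, Eno3 took 85.6% ± 6.10 of enolase and Slc2a4 took 85.6% ± 5.50 of the pair of glucose transporters. Ldhb took 72.3% ± 7.32 of lactate dehydrogenase and Pygm took 61.1% ± 6.54 of glycogen phosphorylase, the rest of which was almost all Pygb. The group means of these shares lay close together. The largest shift was that of Hk2, whose share dropped by 5.02 percentage points from 60.6% ± 5.94 in NLC-MI to 55.6% ± 5.04 in TgGRK5-MI (SD, 5 mice per group), which is less than the spread between libraries of a group. Which hexokinase leads depends on the gene length used: Hk2 took 58.1% over all libraries with the union of its exons and 44.0% with its longest transcript.

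**Figure D4:**
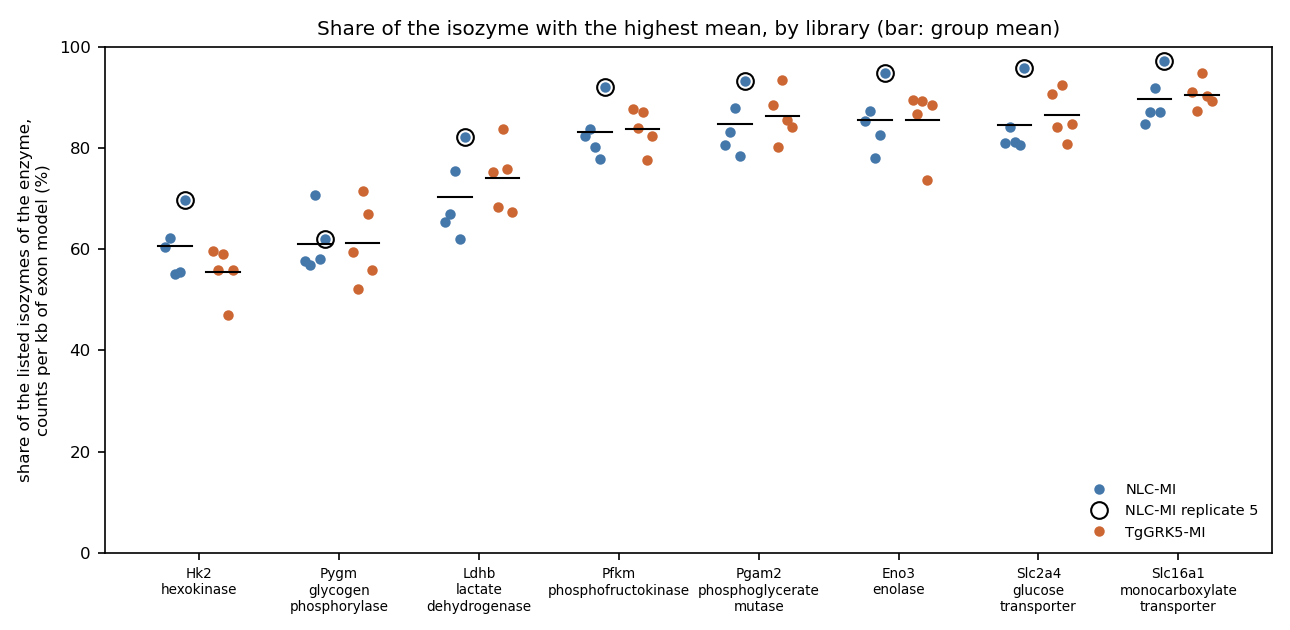
Share (%) of the isozyme with the highest mean for 8 enzymes or transporters, in counts per kb of exon model, with 1 point per library and bars for group means. NLC-MI replicate 5 (ringed) has the highest share of all libraries for 5 of the 8, and TgGRK5-MI replicate 3 for the other 3, while the group means lie close together.

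Differences between mice of the same group were often large. NLC-MI replicate 5 was the highest of the 10 libraries for 13 of 41 members and the lowest for 10, where it was the highest for 16.8% and the lowest for 19.6% of all genes tested. Its 13 high members were Hk2, Pfkm, Pfkfb1, Pfkfb2, Eno3, Ldhb, Pdk1, Pygm, Pygb, Phkb, Phkg1, Slc2a4 and Slc16a1. They held muscle or heart forms beside others, such as the brain form Pygb, the beta subunit Phkb and the broadly expressed Slc16a1. The muscle forms Aldoa, Ldha, Pgam2, Gys1 and Phka1 were not among them. Its 10 low members were Hk3, Pfkp, Pfkfb3, Pgam1, Eno1, Pdk3, Pygl, Phkg2, Slc2a1 and Slc16a3. Slc2a4 made up 95.9% of the glucose transporter RNA in this library, against 80.7% to 92.6% in the others. The same library had the highest summed cardiomyocyte markers (146947 CPM) and the lowest summed fibroblast and macrophage markers (4035 and 835 CPM), and the part of these cells in the pattern was not tested. TgGRK5-MI replicate 3 had the next highest cardiomyocyte sum (121602 CPM). It was the highest library for 8 members (19.5%), among them Gpi1, Aldoa, Tpi1, Gapdh and Pgam2, and for 12.1% of all genes tested. NLC-MI replicate 4, with a cardiomyocyte sum of 81580 CPM, was the highest for 11 members (26.8%) and for 9.96% of all genes. TgGRK5-MI replicate 4 (72459 CPM) was the lowest for 10 members (24.4%) and for 13.2% of all genes. The members together made up 1.92% to 2.71% of all counts of a library.

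**Figure D5:**
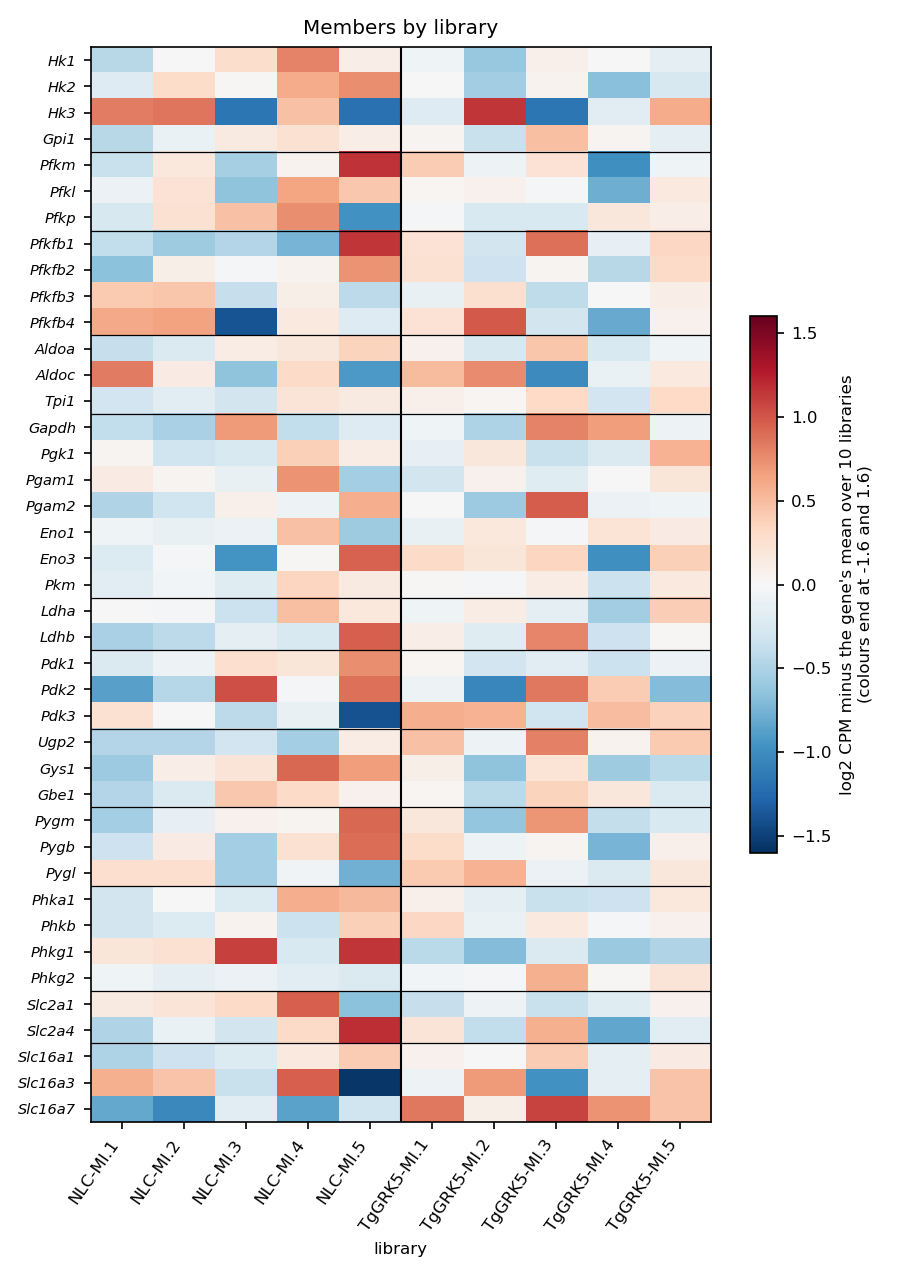
Log2 CPM of each of the 41 members in each of the 10 libraries, minus the gene's mean over the libraries (colours from -1.6 to 1.6), with members ordered by role. NLC-MI replicate 5 is high for Pfkm, Pfkfb1 and Slc2a4 and low for Hk3, Pdk3 and Slc16a3, and the row of Slc16a7 changes colour between the groups.

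Hypoxia-inducible factor raises many glycolytic genes by binding a short core, ACGTG or GCGTG, near their start sites. In RefSeq (GRCm38.p6), 39 of the 41 members had promoter sequence, in 59 windows of 250 bases before a start site. Either core, on either strand, was in 42 of the 59 windows (71.2%), and in 38.6% of all 32851 windows. The members' windows were also richer in G and C, with a median of 60.0% against 52.4% over all windows, and both cores hold a CG step, so the part of base composition in this share was not tested. The GC box GGGCGG was in 49.2% of member windows and 32.7% of all windows, the E-box CACGTG, which holds the ACGTG core, in 10.2% and 6.02%, and TATAAA in 1.69% and 12.4%. Of the 4 members with an unadjusted p under 0.05, Slc16a7 had no window in the table used here, and the windows of the other 3 are printed because they differ widely in this core, from 6 matches in the Ugp2 window to 0 in that of Phkg1. Each is written from 5′ to 3′ along the gene's strand, and capitals mark the core on either strand (reverse complements read CACGT and CACGC). A match is a description of the letters only, and the binding of the factor was not measured.
Ugp2, chr11:21371268-21371517, minus strand: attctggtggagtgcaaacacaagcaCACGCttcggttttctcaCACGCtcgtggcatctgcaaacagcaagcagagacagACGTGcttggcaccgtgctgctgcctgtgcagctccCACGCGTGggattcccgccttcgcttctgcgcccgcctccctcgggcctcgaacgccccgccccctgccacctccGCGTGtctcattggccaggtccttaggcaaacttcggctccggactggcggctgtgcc
Hk2, chr6:82774455-82774704, minus strand: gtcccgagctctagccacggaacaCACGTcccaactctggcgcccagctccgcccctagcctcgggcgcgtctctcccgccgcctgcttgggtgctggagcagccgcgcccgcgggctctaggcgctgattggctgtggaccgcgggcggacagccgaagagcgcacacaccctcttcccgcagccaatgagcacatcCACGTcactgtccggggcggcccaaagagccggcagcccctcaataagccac
Phkg1, chr5:129879089-129879338, minus strand: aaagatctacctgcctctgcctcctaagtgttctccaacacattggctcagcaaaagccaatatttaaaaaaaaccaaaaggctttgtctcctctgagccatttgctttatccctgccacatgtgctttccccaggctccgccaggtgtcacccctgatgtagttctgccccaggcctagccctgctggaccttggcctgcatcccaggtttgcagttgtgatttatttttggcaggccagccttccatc
Of the 2 Ugp2 windows in RefSeq the one next to the annotated gene start is shown, the other held 0 matches, and the start behind the Phkg1 window lies 19461 bases inside the longest GENCODE gene model. Among the 6 matches of the Ugp2 window, 2 overlap each other. The bases just after the start of that window were not found in a GENCODE transcript of Ugp2. Ugp2 was higher in TgGRK5-MI, and Hk2, with 2 matches, and Phkg1, with 0, were lower. These genes were picked by their p in the same data, and a link between matches and direction was not tested.

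The wider pathway is given by 106 further listed genes, of which 94 passed the filter on low counts. At an unadjusted p under 0.05, 4 of these were lower in TgGRK5-MI and 0 were higher, and 0 passed an adjusted p of 0.10 in the edgeR fit. DESeq2 and limma-voom called 0 of them as well. An unadjusted p under 0.05 was reached by 5 of 103 genes in DESeq2 and 11 of 94 in limma-voom. Over all genes the share was 2.97% of 28443 in DESeq2, which ran without the filter on low counts, and 11.9% of 15232 in limma-voom. Of 10 other glycolytic and gluconeogenic enzymes tested, 0 passed an unadjusted p of 0.05 in the edgeR fit. Of 19 other glycogen genes tested, Pgm5 was lower (log2 fold change -0.47), of 14 other transport genes Slc2a12 (-0.72), of 12 genes for pyruvate entry into mitochondria Pcx, the pyruvate carboxylase (-0.67), and of 22 genes of the hypoxia-inducible factor and its targets outside glycolysis Ddit4 (-0.64), each with an edgeR adjusted p of 1.00. Of 17 genes of the pentose phosphate pathway and side branches, 0 passed an unadjusted p of 0.05 in the edgeR fit.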

How the data were processed

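RNA of cardiomyocytes was sequenced from 5 NLC-MI and 5 TgGRK5-MI mice, with libraries made with an Illumina TruSeq RNA kit. The authors deposited whole-number counts per Ensembl gene, not normalized. The submitters' processing notes name Bowtie2, RSEM 1.2.31, DESeq2 and mm10 without saying which step used each, so the counts may be RSEM estimates rounded to whole numbers. The annotation release and strand setting are not given in the sources used here. Groups were taken from the sample labels and column names.

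Members, pathway lists and markers were chosen with earlier results of these data known. Symbols, positions and exon lengths came from GENCODE M21 (GRCm38), which held 51596 of 51789 identifiers. In R 4.3.3, edgeR 4.0.16 normalized the counts with TMM, filtered them with filterByExpr by group and compared the groups with its quasi-likelihood F test, and p was adjusted by Benjamini-Hochberg across the 15232 genes. Calls used an adjusted p under 0.10 and, apart from it, an unadjusted p under 0.05. Log2 CPM used a prior count of 2. The groups were also compared for single members by an exact permutation test, two-sided, that places the 10 libraries in 2 sets of 5 in every way (smallest p 0.00794), with no adjustment over members. Intervals are 95% intervals of the fitted log2 fold change. A count of 3, taken as the floor, equalled 0.121 to 0.393 CPM by library. Copies were found with blastn 2.17.0 from the longest transcript of each member (at least 95% identity over 200 bases). Copies that match only a shorter transcript of a member are not counted.

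Every member was named. Values of every library were given for members with an unadjusted p under 0.05 or non-overlapping groups, for the member with the highest level per kb of each role, for members under 1 CPM in both groups, and for both lactate dehydrogenases and both glucose transporters. A few genes of the pathway lists are not reported here and are left out of their counts. Other pathway genes were named at an unadjusted p under 0.05 or with non-overlapping groups. The alternatives were DESeq2 1.42.0, limma-voom (limma 3.58.1) with quality weights, RLE size factors, no scaling but library size, a robust fit, no filter, at least 10 counts in every library, the replicate block, each library left out, and the longest transcript as gene length. After seeing the data, 3 were added: a library size covariate, a fit of the 7 deepest libraries, and the sum of gene and copies.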

Additional observations from a re-analysis of the deposited data

Results flagged for a closer look

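A library was taken as far from the other 4 of its group where its gap to the nearest of them was over 0.71 of the group's range (Dixon's criterion, which chance passes in about 1 in 20 groups). This held for 7 of 82 groups of members' CPM values (8.54%), beside 8.77% of the groups of all genes tested. In NLC-MI replicate 5, Pfkm reached 1581 CPM where its group otherwise held 490.0 to 794 CPM, Pfkfb1 at 15.8 CPM against 4.18 to 5.37 CPM, and Ldhb at 2311 CPM against 836 to 1075 CPM. In NLC-MI replicate 3, Gapdh was at 8659.7 CPM against 3752 to 4685 CPM. In TgGRK5-MI replicate 3, Pgam2 was at 923 CPM against 314 to 469 CPM. In TgGRK5-MI replicate 4, Pfkl was at 93.9 CPM against 159.7 to 181 CPM, and Eno3 at 537 CPM against 1215 to 1380.0 CPM.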

How the results depend on the processing

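Over all genes, edgeR called 8 higher and 4 lower at an adjusted p under 0.10. The number higher was 13 with library size alone and with no filter, 42 with DESeq2, 41 with limma-voom, 4 with at least 10 counts in every library, 5 with the replicate block and in the 7 deepest libraries, and 2 to 7 with 1 library left out. The number lower was 27 with DESeq2, 9 with limma-voom, 8 with library size as a covariate, 1 in the 7 deepest libraries, and 1 to 3 with 1 library left out. Of the members, 1 was called higher with library size alone, DESeq2, no filter or library size as a covariate (Slc16a7 each time), 2 with limma-voom, and 1 lower with DESeq2 (Phkg1). Members with an unadjusted p under 0.05 numbered 2 higher and 2 lower. Limma-voom gave 5 higher (7.47% of all genes in that fit). Library size alone gave 4 lower (2.15% of 15232 genes), and so did DESeq2 (1.73% of 28443 genes, without the filter on low counts). Leaving out 1 library gave 2 to 3 higher and 1 to 5 lower (1.13% to 3.80% and 1.71% to 3.50% of all genes). The lower members numbered 1 without NLC-MI replicate 4 or TgGRK5-MI replicate 4, 5 without NLC-MI replicate 1 and 4 without TgGRK5-MI replicate 1. Members without overlap numbered 4 in the 7 deepest libraries, where 4.62% of all genes showed this, and 2 to 5 with 1 library left out, with 5 without NLC-MI replicate 5 (2.02% of all genes) and 4 without TgGRK5-MI replicate 3 (1.41%). The exact permutation p of Hk2 ran from 0.0317 to 0.103. With the longest transcript as length, Hk2 took 44.0% of hexokinase, Pfkm 77.8% of phosphofructokinase, Eno3 71.9% of enolase and Ldhb 63.5% of lactate dehydrogenase. The cause of these shifts was not tested.

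Log2 fold changes turned sign with limma-voom for Hk3 (-0.40), Pfkfb2 (0.14), Pfkfb4 (-0.22), Aldoa (0.12), Pkm (0.0422), Pdk2 (0.0281), Gbe1 (0.0622) and Pygm (0.0474), and in the 7 deepest libraries for Gpi1 (-0.13), Pgam2 (-0.19), Ldhb (-0.11) and Slc16a3 (0.0223). With 1 library left out they crossed 0 for 21 members, with ranges of -0.34 to 0.23 (Hk3), -0.12 to 0.11 (Gpi1), -0.40 to 0.10 (Pfkm), -0.27 to 0.095 (Pfkfb2), -0.21 to 0.00852 (Pfkfb3), -0.29 to 0.19 (Pfkfb4), -0.16 to 0.0618 (Aldoa), -0.13 to 0.41 (Aldoc), -0.14 to 0.13 (Pgk1), -0.27 to 0.0698 (Pgam1), -0.18 to 0.32 (Pgam2), -0.13 to 0.36 (Eno3), -0.0918 to 0.0641 (Pkm), -0.23 to 0.018 (Ldha), -0.14 to 0.45 (Ldhb), -0.56 to 0.0111 (Pdk2), -0.17 to 0.0619 (Gbe1), -0.40 to 0.12 (Pygm), -0.35 to 0.0375 (Pygb), -0.51 to 0.0614 (Slc2a4) and -0.40 to 0.10 (Slc16a3). None of these 21 had an unadjusted p under 0.05 in the edgeR fit of all 10 libraries. Slc16a7, Ugp2, Phkg1 and Hk2 kept their direction in all alternatives run.

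Libraries of the groups share replicate numbers only: the deviations of libraries 1 to 5 correlated at 0.0717, 0.662, 0.381, -0.341 and 0.0848 with those of the library of the same number, and 1 of 5 numbers correlated best with its own. The replicate block called 5 higher and 3 lower genes and 0 members, with 3 members higher and 2 lower at an unadjusted p under 0.05. Depth limits Aldoc most, at 2 to 21 counts per library.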
